A study of Homo sapiens with 12 samples.

Results

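Expression of 40 mitotic genes was examined in BON-1 cells, an established line from a human pancreatic neuroendocrine tumour, cultured by themselves or with CAFs. CAF commonly abbreviates cancer-associated fibroblast, a stromal cell of tumours, and the labels do not spell it out. The members were listed by symbol, with kinesins left out apart from CENPE, and all 40 have a row among the 54261 genes of the deposited table. They cover 6 roles: 6 genes of mitotic entry, 5 of the spindle checkpoint, 10 of the kinetochore and centromere, 9 of the spindle, its midzone and cytokinesis, 6 of chromosome structure, and 4 of chromosome separation and mitotic exit. PolyA-selected RNA was sequenced from 12 libraries in 4 groups of 3: BON-1 alone, and BON-1 recovered from mixtures named 10:2, 10:4 and 10:6 for the parts of BON-1 and of CAFs. No drug or genetic change is named in the labels, and the BON-1 line is common to all groups. The labels describe isolation of BON-1 cells from the co-culture by flow cytometry. They do not say whether cells grown alone were sorted, how pure the sort was, how long the co-culture lasted, or whether the libraries of a group were separate cultures. The p-values below therefore measure the spread between libraries, which may be technical.

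At mitosis, cyclin B with CDK1, helped by cyclin A, Aurora A and PLK1, drives a cell out of G2. Kinetochores assemble on centromeric chromatin marked by CENPA, and the checkpoint proteins BUB1, BUB1B, BUB3, MAD2L1 and TTK hold back the anaphase-promoting complex until every chromosome is attached. Condensin and topoisomerase II shape the chromosomes, CDC20 then activates the anaphase-promoting complex, separase (ESPL1) cuts cohesin, and ECT2, RACGAP1 and anillin build the cleavage furrow. Many of these genes are transcribed in G2 and mitosis under FOXM1 and B-MYB, through CCAAT boxes and cell cycle genes homology regions in their promoters.

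Promoter sequences of 4 members are shown because the members include genes that were higher in co-culture (TOP2A, BUB1 and, by less, CCNB1) and a gene that was lower (PLK1). RefSeq promoter sequences (GRCh38.p14) were matched by symbol for 33 of the 40 members, without AURKA, BUB3, TTK, BIRC5, TPX2, RACGAP1 and UBE2C. The 250 bases before the gene start were searched on both strands for TTTGAA, the core of the cell cycle genes homology region, and for CCAAT. Capitals mark these matches in either orientation, so the reverse complement is capitalised too. No match of one motif overlaps the other in the 4 sequences, which lie at chr17:40417897-40418146 (TOP2A, minus strand), chr2:110678064-110678313 (BUB1, minus strand), chr5:69166900-69167149 (CCNB1, plus strand) and chr16:23678639-23678888 (PLK1, plus strand). The genes themselves span chr17:40388525-40417896 (TOP2A), chr2:110637528-110678063 (BUB1), chr5:69167150-69178245 (CCNB1) and chr16:23678889-23690367 (PLK1), and each FPKM value sums a whole gene, with no exon resolved.
TOP2A: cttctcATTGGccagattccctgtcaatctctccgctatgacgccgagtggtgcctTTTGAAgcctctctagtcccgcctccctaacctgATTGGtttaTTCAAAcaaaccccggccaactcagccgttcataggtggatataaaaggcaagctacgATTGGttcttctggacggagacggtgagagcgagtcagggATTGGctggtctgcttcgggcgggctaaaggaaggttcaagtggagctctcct
BUB1: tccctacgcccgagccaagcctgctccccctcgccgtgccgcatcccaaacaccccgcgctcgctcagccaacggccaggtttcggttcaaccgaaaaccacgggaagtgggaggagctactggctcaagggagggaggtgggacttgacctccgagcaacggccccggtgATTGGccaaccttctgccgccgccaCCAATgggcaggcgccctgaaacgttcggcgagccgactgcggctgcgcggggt
CCNB1: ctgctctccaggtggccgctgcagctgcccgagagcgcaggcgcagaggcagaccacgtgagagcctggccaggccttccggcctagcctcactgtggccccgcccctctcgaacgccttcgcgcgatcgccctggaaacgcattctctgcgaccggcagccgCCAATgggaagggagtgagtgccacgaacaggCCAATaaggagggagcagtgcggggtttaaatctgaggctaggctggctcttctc
PLK1: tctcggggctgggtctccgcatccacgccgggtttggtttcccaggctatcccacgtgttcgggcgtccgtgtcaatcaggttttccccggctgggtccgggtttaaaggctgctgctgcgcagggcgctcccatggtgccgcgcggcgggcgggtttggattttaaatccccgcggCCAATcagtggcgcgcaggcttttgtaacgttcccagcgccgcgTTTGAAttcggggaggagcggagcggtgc
TTTGAA was present in 18 of the 33 members' promoters (54.5%), against 4677 of 35116 promoters in the whole table (13.3%). CCAAT was present in 24 of the 33 (72.7%), against 11240 of 35116 (32.0%). Both motifs were present in 14 of the 33 (42.4%), against 1646 of 35116 (4.69%). TTTGAA occurred in 14 of the 25 given promoters of members that were higher at 10:6 than in BON-1 alone and in 3 of the 5 of members that were lower. CCAAT occurred in 17 of the 25 and in all 5. These matches describe the sequence windows and are no evidence of binding.

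Depth ranged from 11703624 to 21882537 reads a library, as recovered from FPKM, a read count scaled by gene length and library depth. Genes reaching an FPKM of 1 in at least 3 libraries were tested (13312), and all 40 members were among them. CENPE and ASPM reached 1 FPKM in no library of BON-1 alone and passed only through co-culture libraries, so counts higher are also given for the other 38. Reads per library behind a member were fewest for CENPE, at 57 to 144. Changes are differences of log2(FPKM + 1) with their standard error, which understate the change of weakly expressed genes, and calls are adjusted p under 0.05 in limma, with Benjamini-Hochberg adjustment over all genes tested. Counts at an unadjusted p under 0.05 are given for members only. The share of all genes at that threshold was not counted, and the shares printed below are not at that threshold.

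Markers of CAFs moved with the CAF share. The summed FPKM of 6 defining fibroblast markers (COL1A1, COL1A2, COL3A1, PDGFRB, DCN, LUM) ranged from 14.4 to 15.7 in BON-1 alone, 30.9 to 32.1 at 10:2, 65.7 to 67.7 at 10:4 and 100.3 to 103 at 10:6. Of 19 listed fibroblast markers 15 were tested, and against BON-1 alone 9 were higher at 10:2, 13 at 10:4 and 13 at 10:6, with none called lower. Over all 19 the sum was 2372 to 2453 in BON-1 alone, 2242 to 2323 at 10:2, 2326 to 2579.9 at 10:4 and 2506 to 2789 at 10:6, most of it S100A4 and VIM. No fibroblast marker was at 0 in every library of a group, although FAP stayed under 0.1 FPKM in BON-1 alone, at 10:2 and at 10:4, DCN in BON-1 alone and at 10:2, and POSTN in BON-1 alone. The part of CAF RNA in the changes below was not tested. Neuroendocrine markers were high in every group, with summed FPKM of 8 genes from 2594 to 2669 in BON-1 alone, 2827 to 2867 at 10:2, 2851 to 2905 at 10:4 and 2909 to 3004 at 10:6. Single markers went both ways against BON-1 alone. SCG2, NEUROD1 and CHGB were called higher at all 3 ratios. CHGA, INSM1 and SYP were called lower at all 3, and ENO2 at 10:4 and 10:6. The median log2 change of the 8 was 0.01 at 10:2 and -0.03 at 10:4 and 10:6. Of all genes, 29.7% were called higher and 18.3% lower at 10:6. The 8 leukocyte and endothelial markers summed to between 32.8 and 36.9 FPKM in every library, with CD3E at 0 throughout. In bulk samples, a change in the share of cells in mitosis and a change in RNA per cell cannot be told apart.

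Most of the mitotic genes were higher in BON-1 cells from co-culture than in BON-1 alone, and a smaller set was lower. At 10:2, 25 of the 40 were higher and 2 lower, against 19.9% and 7.46% of all genes tested (27.4% in either direction). At 10:4, 31 were higher and 4 lower, where 27.3% and 18.1% of all genes were (45.4% in either direction). At 10:6, 29 were higher and 6 lower, where 29.7% and 18.3% of all genes were (48.0% in either direction). Without CENPE and ASPM the counts higher were 24, 29 and 28 of 38 at 10:2, 10:4 and 10:6. The median log2 change of the 40 was 0.27 at 10:2, 0.40 at 10:4 and 0.28 at 10:6, while the median over all genes was 0.00, -0.01 and 0.02. The same 25 members were higher in all 3 comparisons, PLK1 alone was lower in all 3, and CENPA, NCAPH and UBE2C were called in none. The 3 comparisons share the BON-1 alone libraries. Every co-culture library lay above every library of BON-1 alone for 28 members at 10:2, 30 at 10:4 and 32 at 10:6, and below for 5, 5 and 6. Over all genes such gaps were seen upward in 27.1%, 30.8% and 33.8%, and downward in 18.3%, 24.3% and 24.5%. By the moderated F test over the 4 groups, 36 of 40 members differed, against 44.4% of all genes, the others being CCNB2, CENPA, NCAPH and UBE2C. CENPE and ASPM are among the members with upward gaps at each ratio and among the 36.

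The GC content of the transcripts moved with these changes, and its part in them was not tested beyond the trend removal below. Among the 40 members, Spearman's rho between GC content and the log2 change against BON-1 alone was -0.68 at 10:2, -0.78 at 10:4 and -0.57 at 10:6, and among 12395 genes it was -0.68, -0.72 and -0.72. These correlations run across genes measured in the same libraries, and genes are not independent replicates. Members were richer in A and T than most genes, with a median GC of 42.3% against 49.8%. The 29 members called higher at 10:6 had a GC of 36.7% to 49.3%, and the 6 called lower had 52.2% to 57.9%, so the ranges do not overlap. When smooth trends on GC content and gene length were removed from each library's log2 values before the same fit, 10 members were higher and none lower at 10:2 (18 and 3 at an unadjusted p under 0.05), 17 higher and 5 lower at 10:4, and 8 higher and 8 lower at 10:6. All genes tested that way gave 6.06% higher and 5.61% lower at 10:2, 10.6% and 12.5% at 10:4, and 11.5% and 14.0% at 10:6. Of the members called higher on the deposited values, 10 of 25, 16 of 31 and 7 of 29 were called higher again. The members higher both ways at 10:6 were BUB1, BUB1B, NUSAP1, ANLN, TOP2A, MKI67 and PTTG1. Those higher both ways at 10:4 were BUB1, BUB1B, NDC80, NUF2, CENPF, NUSAP1, DLGAP5, HMMR, ECT2, ANLN, TOP2A, SMC2, SMC4, NCAPG, MKI67 and PTTG1, and at 10:2 BUB1, BUB1B, NUSAP1, DLGAP5, HMMR, ECT2, ANLN, TOP2A, NCAPG and MKI67. Of the members called lower, 0 of 2 at 10:2, ESPL1 of 4 at 10:4, and PLK1 and AURKB of 6 at 10:6 were called lower again. CCNB1, CCNB2 and BUB3, called higher on the deposited values at 10:4 and 10:6, were called lower at both with the trends removed, as was MAD2L1 at 10:6. Every other call against BON-1 alone was lost.

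**Figure D1:**
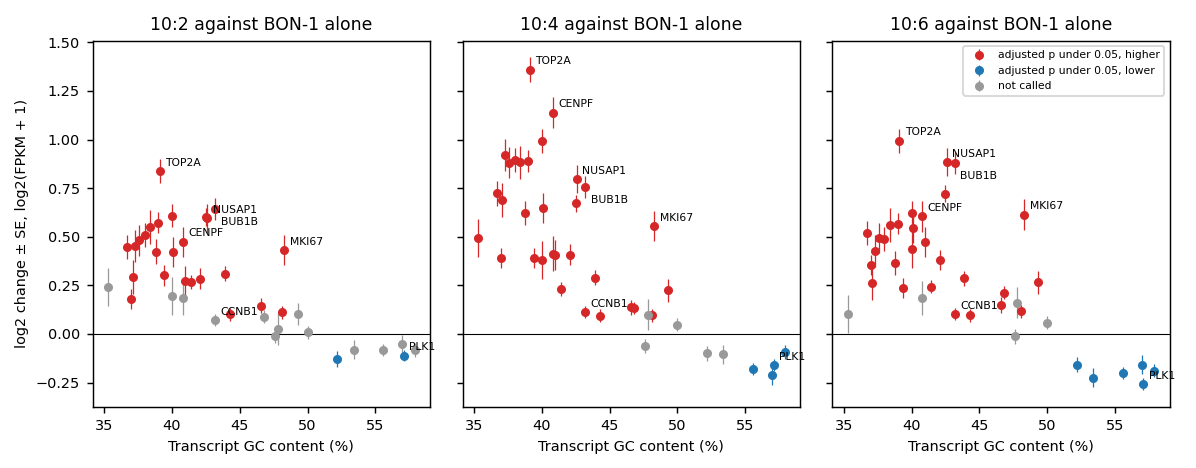
Log2 change against BON-1 alone (y axis, log2(FPKM + 1), bars are standard errors) plotted on transcript GC content in percent (x axis) for the 40 members at 10:2, 10:4 and 10:6. Members called higher lie on the left of each panel and members called lower on the right, at a GC of 52.2% or more.

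The 6 kinases and cyclins of mitotic entry had median log2 changes of 0.12, 0.12 and 0.13 at 10:2, 10:4 and 10:6. CCNA2 (cyclin A2), CCNB2 (cyclin B2), CDK1 and AURKA (Aurora A, the centrosome kinase) were higher at all 3 ratios, and CCNB1 (cyclin B1) at 10:4 and 10:6. CDK1, the kinase that cyclin B activates, measured 64.7, 66.2 and 66.3 FPKM in BON-1 alone, 78.6, 70.9 and 74.8 at 10:2, 83.1, 93.0 and 83.7 at 10:4, and 79.8, 87.5 and 85.7 at 10:6. Every co-culture library lay above every library of BON-1 alone, and the log2 change at 10:6 was 0.35 ± 0.05 (SE; limma adjusted p = 0.000181). CCNA2 averaged 42.1 ± 2.41 FPKM at 10:6, against 32.1 ± 0.545 in BON-1 alone (SD, n = 3 each), and CCNB1 averaged 132 ± 4.24, against 123 ± 2.64. No gene of this group was called higher after trend removal, CDK1 had a log2 change of -0.01 at 10:6, and CCNB1 and CCNB2 were called lower at 10:6 (log2 -0.18 and -0.13) and at 10:4 (-0.16 and -0.11). Several of these calls were lost when 1 library was left out. At 10:6 the CCNB1 call was lost without BON-1 alone replicate 2 or 10:6 replicate 2 (adjusted p up to 0.0834), and the CCNB2 call without BON-1 alone replicate 1, BON-1 alone replicate 3, 10:6 replicate 2 or 10:6 replicate 3 (up to 0.129). At 10:4 the CCNB1 call was lost without BON-1 alone replicate 2 (0.0577), the AURKA call without BON-1 alone replicate 2, BON-1 alone replicate 3 or 10:4 replicate 2 (up to 0.0659), and the CCNB2 call without any of 7 libraries (up to 0.148). At 10:2 the AURKA call was lost without BON-1 alone replicate 2, BON-1 alone replicate 3 or 10:2 replicate 1 (up to 0.0772), the CDK1 call without BON-1 alone replicate 1, BON-1 alone replicate 2, 10:2 replicate 1 or 10:2 replicate 3 (up to 0.0833), and the CCNB2 call without any of 7 libraries (up to 0.157).

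PLK1, the polo-like kinase that promotes entry, centrosome maturation and spindle assembly, went the other way. It measured 152, 149.6 and 148 FPKM in BON-1 alone, 139, 142 and 134 at 10:2, 131, 132 and 138 at 10:4, and 126, 127 and 123 at 10:6. All co-culture libraries were below those of BON-1 alone, and the 10:6 libraries were the lowest of the 12. The log2 changes were -0.11 ± 0.03 at 10:2, -0.16 ± 0.03 at 10:4 and -0.26 ± 0.03 at 10:6 (SE; limma adjusted p = 0.0174, 0.00112 and 3.61e-05). At 10:6 PLK1 was also lower with the trends removed (-0.13, adjusted p = 0.00477), whereas at 10:2 and 10:4 it was not called that way (-0.02 and -0.03). The call at 10:2 was lost without BON-1 alone replicate 1 or 10:2 replicate 3, with adjusted p up to 0.0705.

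Of the 5 spindle checkpoint genes, 4 were higher at 10:2, 5 at 10:4 and 4 at 10:6. Of all genes tested, 19.9%, 27.3% and 29.7% were. BUB1, a kinetochore kinase that recruits the other checkpoint proteins, measured 16.0, 16.3 and 17.0 FPKM in BON-1 alone, 26.7, 24.0 and 25.7 at 10:2, 25.9, 26.5 and 28.0 at 10:4, and 27.7, 27.6 and 27.9 at 10:6. Its lowest co-culture library was well above the highest of BON-1 alone, and the 3 ratios lay close together. The log2 changes were 0.60 ± 0.04, 0.67 ± 0.04 and 0.72 ± 0.04 at 10:2, 10:4 and 10:6 (limma adjusted p = 4.85e-06, 5.72e-07 and 3.61e-07). BUB1B (BubR1), which binds CDC20 within the checkpoint complex, measured 13.3, 11.0 and 12.5 FPKM in BON-1 alone, 19.8, 19.2 and 20.0 at 10:2, 20.5, 22.2 and 21.3 at 10:4, and 23.0, 23.5 and 23.6 at 10:6. The ranges of the 4 groups did not overlap, and the log2 change reached 0.88 ± 0.06 at 10:6 (adjusted p = 5.55e-07). Both were also called after trend removal at all 3 ratios, at log2 0.38 for BUB1 and 0.56 for BUB1B at 10:6.

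BUB3, their common partner, averaged 59.0 ± 1.84 FPKM at 10:6, against 49.7 ± 1.09 in BON-1 alone, and MAD2L1, the checkpoint protein that captures CDC20, averaged 41.6 ± 3.10, against 35.1 ± 0.391 (SD, n = 3 each). Both were called higher at every ratio, but with the trends removed both were called lower at 10:6 (log2 -0.12 and -0.14). At 10:4 BUB3 was likewise called lower (-0.13, adjusted p = 0.0171), and MAD2L1 was at -0.03 and not called. TTK (MPS1), the kinase at the head of the checkpoint, was higher at 10:4 alone, with 3.36 ± 0.251 FPKM, against 2.28 ± 0.264 in BON-1 alone. Its log2 change of 0.41 ± 0.09 (limma adjusted p = 0.0028) was not called with the trends removed.

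**Figure D2:**
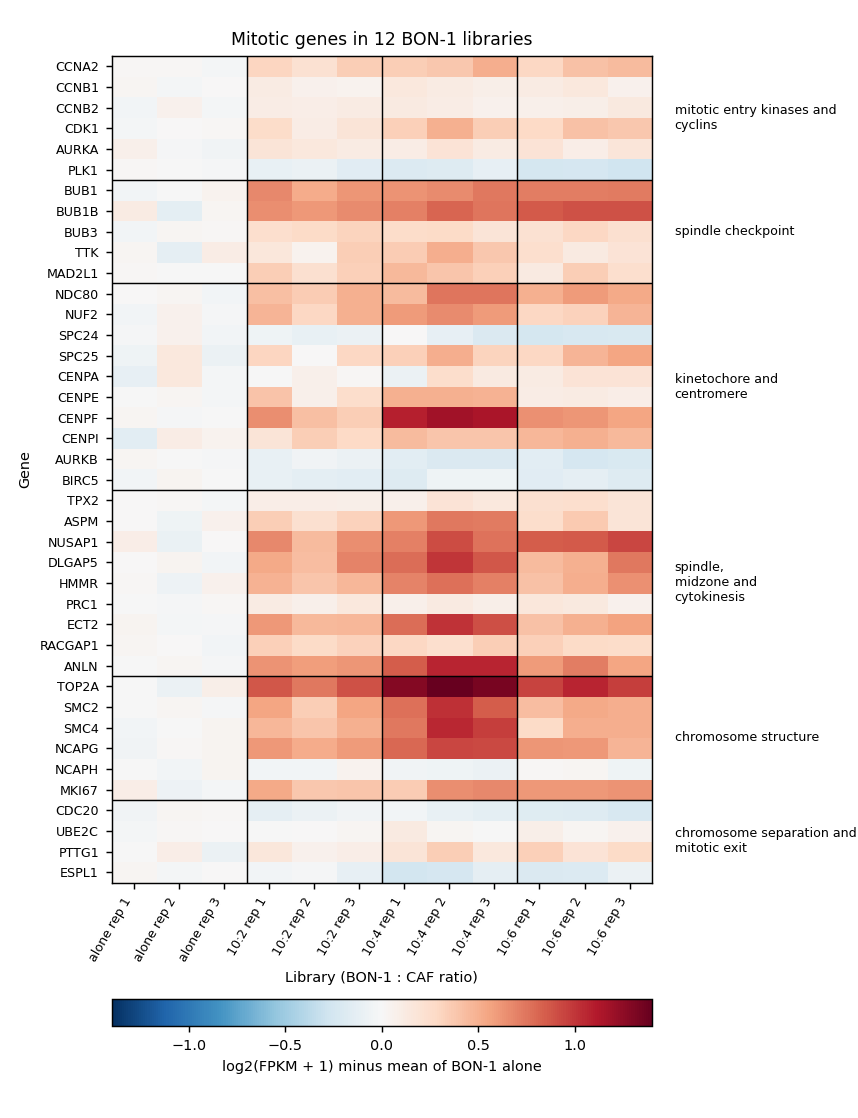
Log2(FPKM + 1) of each member in each of the 12 libraries, minus the mean of the 3 BON-1 alone libraries, with red above and blue below that mean; genes run down the page by role and libraries run from BON-1 alone to 10:6. TOP2A, CENPF, ANLN and SMC4 are deepest in the 10:4 columns, and PLK1, SPC24, AURKB, BIRC5, CDC20 and ESPL1 are blue at 10:6.

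The 10 kinetochore and centromere genes were called in both directions. At 10:6, NDC80, NUF2, SPC25, CENPF and CENPI were higher, SPC24, AURKB and BIRC5 were lower, and CENPA and CENPE were not called. Of all genes tested, 29.7% were higher and 18.3% lower at 10:6. CENPF, a large protein of the outer kinetochore, measured 1.37, 1.30 and 1.31 FPKM in BON-1 alone, 2.66, 2.11 and 1.95 at 10:2, 3.96, 4.25 and 4.14 at 10:4, and 2.62, 2.57 and 2.42 at 10:6. The 10:4 libraries stood above all others, while 10:2 and 10:6 overlapped. Its log2 changes against BON-1 alone were 0.47 ± 0.08, 1.14 ± 0.08 and 0.61 ± 0.08 at 10:2, 10:4 and 10:6 (limma adjusted p = 0.00109, 8.31e-07 and 8.3e-05). Only the change at 10:4 was called with the trends removed (0.70), the others being 0.15 and 0.17.

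Within the NDC80 complex, the microtubule-binding rod of the kinetochore, 3 subunits were called higher at 10:6 and the remaining one lower. NDC80 averaged 9.21 ± 0.370 FPKM at 10:6, against 6.00 ± 0.150 in BON-1 alone, NUF2 averaged 10.6 ± 0.763, against 7.98 ± 0.317, and SPC25 averaged 17.5 ± 1.72, against 12.6 ± 1.25 (SD, n = 3 each). SPC24, which pairs with SPC25 at the inner end of the rod, measured 19.2, 20.3 and 19.0 FPKM in BON-1 alone, 18.6, 18.1 and 18.4 at 10:2, 19.6, 17.9 and 16.8 at 10:4, and 16.3, 16.6 and 16.7 at 10:6. Its 10:6 libraries were the lowest, at log2 -0.22 ± 0.05 against BON-1 alone (limma adjusted p = 0.00289). None of the 4 subunits was called at 10:6 after trend removal, with log2 changes of 0.17, -0.02, 0.07 and -0.14 for NDC80, NUF2, SPC25 and SPC24. NDC80 and NUF2 were called at 10:4 that way (0.25 and 0.19) and not at 10:2.

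AURKB (Aurora B) and BIRC5 (survivin) belong to the chromosomal passenger complex, which corrects faulty attachments. AURKB measured 92.4, 90.6 and 89.7 FPKM in BON-1 alone, 84.3, 87.5 and 85.5 at 10:2, 82.2, 79.0 and 79.0 at 10:4, and 82.0, 77.1 and 78.2 at 10:6. BIRC5 measured 43.8, 46.4 and 45.0 FPKM in BON-1 alone, 41.9, 40.9 and 40.6 at 10:2, 39.5, 43.3 and 43.2 at 10:4, and 40.2, 41.1 and 39.5 at 10:6. For both genes every co-culture library was below every library of BON-1 alone. At 10:6 the log2 changes were -0.20 ± 0.03 for AURKB and -0.16 ± 0.04 for BIRC5 (limma adjusted p = 0.000315 and 0.00609). AURKB was also called with the trends removed (-0.08, adjusted p = 0.0256) but not at 10:4 (-0.06, adjusted p = 0.0557), and BIRC5 at 10:6 was not (-0.10, adjusted p = 0.0654). At 10:2 BIRC5 was called lower on the deposited values (log2 -0.13 ± 0.04, limma adjusted p = 0.0316). That call was lost without BON-1 alone replicate 2, BON-1 alone replicate 3, 10:2 replicate 2 or 10:2 replicate 3, with adjusted p up to 0.117. CENPA, the centromeric histone H3, averaged 16.6 ± 0.497 FPKM at 10:6, against 14.8 ± 1.48 in BON-1 alone (log2 0.16 ± 0.08, adjusted p = 0.122). CENPI, of the constitutive centromere network, averaged 2.45 ± 0.0571 FPKM at 10:6, against 1.50 ± 0.220 (log2 0.47 ± 0.08, adjusted p = 0.000475), and 0.05 on the log2 scale with the trends removed. At 10:2 its call was lost without BON-1 alone replicate 1, 10:2 replicate 2 or 10:2 replicate 3, with adjusted p up to 0.0969. CENPE, the kinetochore motor, averaged 0.544 ± 0.0332 FPKM in BON-1 alone, 0.831 ± 0.207 at 10:2, 1.17 ± 0.00771 at 10:4 and 0.657 ± 0.0127 at 10:6, and was called higher at 10:4 (log2 0.49 ± 0.10, adjusted p = 0.00164). After trend removal it was not called at 10:4 and was called lower at 10:6 (-0.30, adjusted p = 0.0274).

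All 9 genes of the spindle, midzone and cytokinesis were higher at 10:4 and at 10:6, and 8 were at 10:2. Each count includes ASPM, which was under 1 FPKM in BON-1 alone. Of all genes tested, 27.3% were higher at 10:4, 29.7% at 10:6 and 19.9% at 10:2. NUSAP1, which bundles spindle microtubules around chromosomes, measured 16.0, 13.9 and 15.0 FPKM in BON-1 alone, 24.5, 20.7 and 24.1 at 10:2, 25.0, 29.1 and 26.1 at 10:4, and 27.8, 27.9 and 29.6 at 10:6. ANLN (anillin), the scaffold of the contractile ring, measured 5.63, 5.79 and 5.56 FPKM in BON-1 alone, 9.27, 8.97 and 9.25 at 10:2, 11.0, 12.9 and 12.9 at 10:4, and 9.06, 9.93 and 8.76 at 10:6. ECT2, the exchange factor that activates RhoA at the furrow, measured 9.73, 9.28 and 9.31 FPKM in BON-1 alone, 14.9, 13.3 and 13.4 at 10:2, 16.9, 20.0 and 18.5 at 10:4, and 12.9, 13.7 and 14.4 at 10:6. No co-culture library of these 3 genes overlapped BON-1 alone, and ANLN and ECT2 were highest at 10:4 while NUSAP1 had its highest mean at 10:6. At 10:6 the log2 changes were 0.88 ± 0.07 for NUSAP1, 0.62 ± 0.06 for ANLN and 0.49 ± 0.06 for ECT2 (limma adjusted p = 3.23e-06, 1.1e-05 and 7.92e-05). After trend removal, NUSAP1 and ANLN were called at all 3 ratios (0.56 and 0.19 at 10:6), and ECT2 at 10:2 and 10:4 but not at 10:6 (0.06).

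DLGAP5 (HURP) and HMMR, which stabilise spindle fibres, averaged 8.10 ± 0.991 and 7.39 ± 0.669 FPKM at 10:6, against 5.16 ± 0.155 and 4.85 ± 0.277 in BON-1 alone. Both were called with the trends removed at 10:2 and 10:4, not at 10:6. TPX2, the activator of Aurora A on the spindle, and PRC1, the bundler of the midzone, were measured at higher FPKM. TPX2 averaged 100.4 ± 2.22 FPKM at 10:6, against 86.5 ± 1.23 in BON-1 alone, and PRC1 73.5 ± 2.69, against 67.7 ± 0.893. RACGAP1, the partner of ECT2, averaged 29.3 ± 0.903 FPKM at 10:6, against 23.9 ± 0.532. ASPM, of the spindle pole, averaged 0.636 ± 0.0709 FPKM in BON-1 alone, 1.01 ± 0.0898 at 10:2, 1.64 ± 0.133 at 10:4 and 0.965 ± 0.123 at 10:6. None of TPX2, PRC1, RACGAP1 and ASPM was called at any ratio against BON-1 alone with the trends removed. ASPM lost its call at 10:6 without BON-1 alone replicate 1, BON-1 alone replicate 2 or 10:6 replicate 2 (adjusted p up to 0.105), and at 10:2 without BON-1 alone replicate 1, BON-1 alone replicate 2, 10:2 replicate 1 or 10:2 replicate 3 (up to 0.0991). PRC1 lost its call at 10:4 without any library of BON-1 alone, 10:4 replicate 2 or 10:4 replicate 3 (up to 0.114), and at 10:2 without any library of BON-1 alone, 10:2 replicate 1 or 10:2 replicate 3 (up to 0.104).

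On the log2(FPKM + 1) scale the largest rise among the 40 at each ratio against BON-1 alone was that of TOP2A. TOP2A (topoisomerase II alpha), which untangles and condenses chromosomes, measured 6.87, 6.48 and 7.39 FPKM in BON-1 alone, 13.4, 12.2 and 13.7 at 10:2, 18.2, 20.8 and 18.9 at 10:4, and 14.2, 15.5 and 14.5 at 10:6. The 4 groups did not overlap, and 10:4 was the highest. Its log2 changes were 0.84 ± 0.06, 1.36 ± 0.06 and 0.99 ± 0.06 at 10:2, 10:4 and 10:6 (limma adjusted p = 5.09e-06, 6.71e-08 and 4.73e-07), and 0.51, 0.89 and 0.55 with the trends removed, all called. MKI67, the Ki-67 protein of the chromosome surface and a common marker of cycling cells, measured 10.8, 9.51 and 9.84 FPKM in BON-1 alone, 15.0, 13.3 and 13.5 at 10:2, 13.1, 16.3 and 16.6 at 10:4, and 15.8, 15.8 and 16.1 at 10:6. The co-culture libraries lay above BON-1 alone, and the range at 10:4 took in those at 10:2 and 10:6. At 10:6 its log2 change of 0.61 ± 0.08 (limma adjusted p = 7.69e-05) was 0.49 with the trends removed, and it was called that way at all 3 ratios.

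Among condensin I subunits, SMC2, SMC4 and NCAPG were called higher at every ratio and NCAPH at none, while NCAPD2, which is not among the 40, was called lower at 10:4 and 10:6. NCAPG measured 5.61, 5.94 and 6.03 FPKM in BON-1 alone, 9.46, 8.81 and 9.34 at 10:2, 11.0, 12.1 and 12 at 10:4, and 9.53, 9.44 and 8.55 at 10:6. SMC4, an ATPase arm of the complex, measured 5.67, 5.80 and 6.04 FPKM in BON-1 alone, 8.45, 7.95 and 8.67 at 10:2, 10.4, 13.2 and 12.4 at 10:4, and 7.26, 8.71 and 8.70 at 10:6. NCAPH, the kleisin that joins the arms, measured 16.6, 16.2 and 17.1 FPKM in BON-1 alone, 16.2, 16.2 and 17.2 at 10:2, 16.0, 15.9 and 15.7 at 10:4, and 16.8, 16.9 and 15.9 at 10:6. NCAPG and SMC4 were above BON-1 alone in every co-culture library and highest at 10:4, whereas NCAPH at 10:6 overlapped BON-1 alone. The log2 changes at 10:6 were 0.57 ± 0.05 for NCAPG, 0.43 ± 0.08 for SMC4 and -0.01 ± 0.04 for NCAPH (limma adjusted p = 8.74e-06, 0.00129 and 0.84). With the trends removed, NCAPG was called at 10:2 and 10:4 (0.26 and 0.43) and not at 10:6 (0.13), SMC4 was called at 10:4 alone (0.43; -0.004 at 10:6), and NCAPH was called lower at 10:4 and 10:6 (-0.14 and -0.15). SMC2, the other arm, averaged 3.35 ± 0.151 FPKM at 10:6, against 2.09 ± 0.0420 in BON-1 alone, and with the trends removed was called at 10:4 alone. NCAPD2 averaged 68.6 ± 2.13 FPKM at 10:6, against 75.7 ± 1.49 in BON-1 alone (log2 -0.14 ± 0.04, limma adjusted p = 0.019), and was also called lower with the trends removed (-0.12, adjusted p = 0.0196). That call on the deposited values was lost without BON-1 alone replicate 1, BON-1 alone replicate 3 or 10:6 replicate 3, with adjusted p up to 0.0767.

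**Figure D3:**
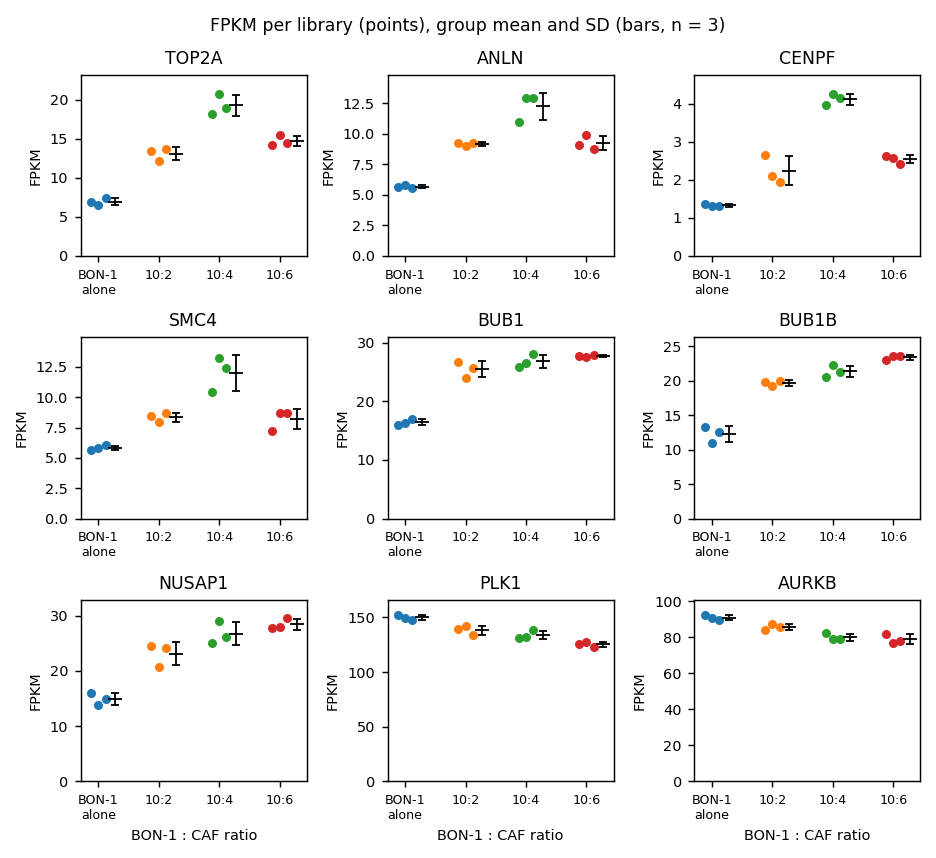
FPKM of 9 members in every library (points, 3 a group), with group mean and SD (bars), from BON-1 alone to 10:6 on the x axis; each y axis starts at 0. TOP2A, ANLN, CENPF and SMC4 peak at 10:4, BUB1 and BUB1B are highest at 10:6, and PLK1 and AURKB are lower in co-culture by a small share of their level.

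The 4 genes of chromosome separation and mitotic exit had median log2 changes of -0.02, -0.02 and -0.05 at 10:2, 10:4 and 10:6. CDC20, the activator of the anaphase-promoting complex, measured 137, 144 and 143 FPKM in BON-1 alone, 129.5, 133 and 137 at 10:2, 138, 131 and 128 at 10:4, and 126, 125 and 121 at 10:6. ESPL1 (separase) measured 15.7, 15.1 and 15.4 FPKM in BON-1 alone, 15.0, 15.2 and 14.2 at 10:2, 12.7, 12.9 and 14.0 at 10:4, and 13.2, 13.4 and 14.5 at 10:6. At 10:6 all libraries of both genes were below BON-1 alone, with log2 changes of -0.19 ± 0.03 for CDC20 and -0.16 ± 0.05 for ESPL1 (limma adjusted p = 0.000887 and 0.0189). Neither was called at 10:6 with the trends removed (-0.05 and -0.10), and at 10:4 CDC20 was -0.09 on the deposited values and 0.03 with the trends removed, while ESPL1 was called both ways (-0.21 and -0.14). The ESPL1 call at 10:6 was lost without BON-1 alone replicate 1, 10:6 replicate 1 or 10:6 replicate 2, with adjusted p up to 0.0654. The CDC20 call at 10:4 was lost without BON-1 alone replicate 2, BON-1 alone replicate 3, 10:2 replicate 2, 10:4 replicate 2, 10:4 replicate 3, 10:6 replicate 1 or 10:6 replicate 2, with adjusted p up to 0.147.

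UBE2C, the ubiquitin-conjugating enzyme of the anaphase-promoting complex and the most highly expressed member, measured 263, 271 and 269 FPKM in BON-1 alone, 266, 269 and 272 at 10:2, 292, 272 and 267 at 10:4, and 284, 273 and 279 at 10:6. The 10:6 libraries lay just above BON-1 alone, but the log2 change was 0.06 ± 0.03 (limma adjusted p = 0.171), while with the trends removed UBE2C was called higher at 10:6 (0.08, adjusted p = 0.016) and at 10:4 (0.09, adjusted p = 0.00872). PTTG1 (securin), the inhibitor of separase, averaged 152 ± 7.12 FPKM at 10:6, against 127 ± 7.43 in BON-1 alone (log2 0.27 ± 0.06, adjusted p = 0.00275), and held at 0.26 with the trends removed. Both genes have near-identical copies elsewhere in the genome, and how reads shared with these were counted is not given in the sources used here.

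**Figure D4:**
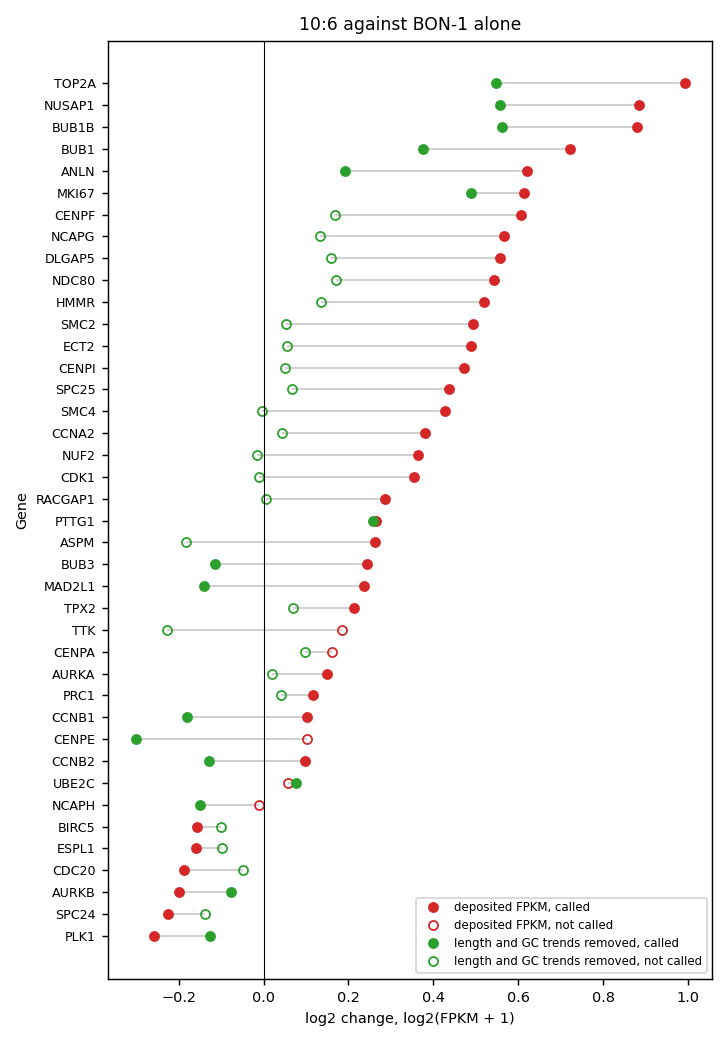
Log2 change of the 40 members at 10:6 against BON-1 alone (x axis, log2(FPKM + 1)) on the deposited values (red) and after removal of length and GC trends (green); filled points are called at adjusted p under 0.05. Most red points lie to the right of their green partner, and the 6 members called lower on the deposited values lie to the left of theirs.

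The group mean was highest in BON-1 alone for 7 members, at 10:2 for 3, at 10:4 for 18 and at 10:6 for 12. The highest group was not counted over all genes. The 18 had a median GC of 38.9%, the 7 of 55.6% and the 12 of 46.7%. Spearman's rho between GC content and the log2 difference at 10:4 against 10:2 was -0.82 among members and -0.5 among 12395 genes. For 10:6 against 10:4 it was 0.59 among members and 0.01 among those genes. The part of GC content in these differences was not tested beyond the trend removal. At 10:4 against 10:2, 9 of the 40 were higher and none lower, where 2.47% and 0.413% of all genes were (2.88% in either direction). Without CENPE and ASPM, 8 of 38 were higher. At an unadjusted p under 0.05, 17 of the 40 were higher and 2 lower, and the share of all genes at that threshold was not counted. The 9 were CENPF, ASPM, HMMR, ECT2, ANLN, TOP2A, SMC2, SMC4 and NCAPG, led by CENPF (log2 0.66 ± 0.08, limma adjusted p = 0.00216) and TOP2A (0.52 ± 0.06, adjusted p = 0.00221). With the trends removed CENPF, TOP2A and SMC4 were called (0.54, 0.38 and 0.30), where 0.589% of all genes were called higher and 0.266% lower. Every 10:4 library lay above every 10:2 library for 19 members and below for 3, where 14.6% and 9.04% of all genes had such gaps. CENPE and ASPM are among the 19, and among the 17 higher at an unadjusted p under 0.05. Without 10:2 replicate 2, or without 10:4 replicate 2, only 2 of the 40 were called. Over all 13312 genes, 60 and 45 were then called, against 384 in the main fit.

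At 10:6 against 10:4, 6 of the 40 were lower and none higher, where 0.233% and 0.0977% of all genes were (0.331% in either direction). At an unadjusted p under 0.05, 17 were lower and 1 higher, again without a count over all genes. CENPF was lower by the largest amount (log2 -0.53 ± 0.08, limma adjusted p = 0.021), followed by SMC4 (-0.49 ± 0.08, 0.0349), ECT2 (-0.41 ± 0.06, 0.0288), ANLN (-0.37 ± 0.06, 0.0349), TOP2A (-0.37 ± 0.06, 0.0372) and NCAPG (-0.32 ± 0.05, 0.0349). In all 6, every 10:6 library was below every 10:4 library. Such a gap held for 16 members downward and 2 upward, where 7.61% and 9.77% of all genes had one. CENPE and ASPM are among the 16, and among the 17 lower at an unadjusted p under 0.05. After trend removal the same 6 and SMC2 were called lower and none higher, with 0.500% of all genes called lower and 0.250% higher. The calls on the deposited values were close to the threshold. None was made without 10:4 replicate 2, 10:4 replicate 3 or 10:6 replicate 1 (12, 14 and 12 calls over all 13312 genes). A single member was called without BON-1 alone replicate 2, 10:6 replicate 2 or 10:6 replicate 3, 2 without BON-1 alone replicate 1, 10:2 replicate 1 or 10:2 replicate 3, and 3 without BON-1 alone replicate 3. In that order, calls over all genes were 19 each, then 21, 23 and 26, and then 27. When only the 6 libraries compared were fitted none was called (16 lower and 1 higher at an unadjusted p under 0.05), and with limma-voom on recovered reads 10 were called lower. Over all 13312 genes, 12 and 276 were called in these fits, against 44 in the main fit. BUB1, BUB1B, NUSAP1 and MKI67, which were not called between these ratios, had log2 differences of 0.05 ± 0.04, 0.12 ± 0.06, 0.09 ± 0.07 and 0.06 ± 0.08.

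**Figure D5:**
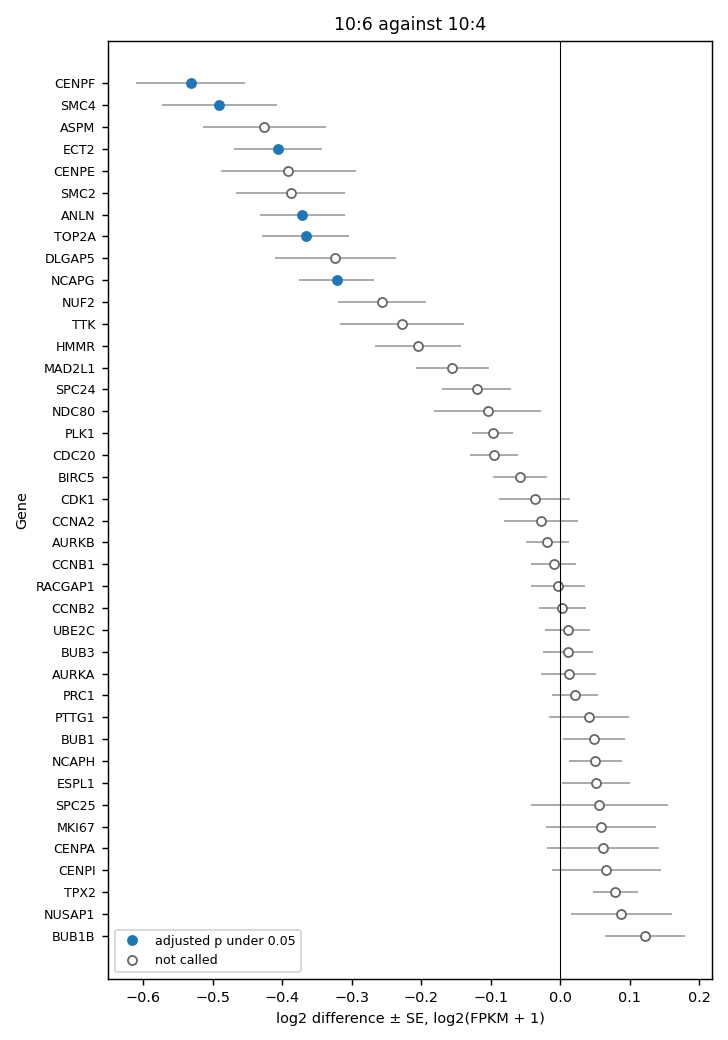
Log2 difference of each member at 10:6 against 10:4 (x axis, log2(FPKM + 1), bars are standard errors), sorted from the lowest at the top; filled points are called at adjusted p under 0.05. CENPF, SMC4, ECT2, ANLN, TOP2A and NCAPG are filled, all below 0, and BUB1B is at the other end at 0.12.

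At 10:6 against 10:2, BUB1B (log2 0.24 ± 0.06, limma adjusted p = 0.0338), NUSAP1 (0.29 ± 0.07, 0.0382) and TPX2 (0.12 ± 0.03, 0.044) were higher, and PLK1 (-0.15 ± 0.03, 0.0185) and AURKB (-0.12 ± 0.03, 0.0465) were lower. Over all genes 4.52% were higher and 2.45% lower (6.97% in either direction). After trend removal no member was higher (5 at an unadjusted p under 0.05) and 4 were lower, PLK1, AURKB, BUB3 and MAD2L1, where 1.72% and 1.97% of all genes were. Every 10:6 library lay above every 10:2 library for 12 members and below for 4, where 17.6% and 11.3% of all genes had such gaps. No member was called without 10:2 replicate 2 or 10:6 replicate 3. A single member was called without 10:2 replicate 3 or 10:6 replicate 2, 2 without BON-1 alone replicate 3 or 10:2 replicate 1, and 3 without BON-1 alone replicate 1, BON-1 alone replicate 2, 10:4 replicate 3 or 10:6 replicate 1. Over all 13312 genes, these fits called 252 and 229, 600 and 338, 706 and 597, and 703, 677, 907 and 890 in that order. The main fit called 928. TOP2A did not overlap between these ratios (14.2 to 15.5 FPKM at 10:6, 12.2 to 13.7 at 10:2), but its log2 difference of 0.16 ± 0.06 was not called (adjusted p = 0.153).

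Other genes of the same machinery were counted from a list of 89 that holds no member and no kinesin. All but CENPC were tested. Against BON-1 alone, 36 of 88 were higher and 7 lower at 10:2, 46 and 21 at 10:4, and 47 and 21 at 10:6, and with the trends removed 12 and 5, 19 and 9, and 17 and 14. Beside these stand the shares of all genes called higher and lower: 19.9% and 7.46%, 27.3% and 18.1%, and 29.7% and 18.3% on the deposited values, and 6.06% and 5.61%, 10.6% and 12.5%, and 11.5% and 14.0% with the trends removed. Of the 89 listed genes, 13 encode cohesin, the complex that holds sister chromatids together, or its regulators. Among these 13, 10 were higher and 2 lower at 10:6, where 29.7% and 18.3% of all genes were. PDS5B and NIPBL, among the 10, averaged under 1 FPKM in BON-1 alone (0.587 ± 0.118 and 0.648 ± 0.0192, SD, n = 3). So did KNL1 (0.742 ± 0.160), counted higher among the 88 at every ratio. The counts were not repeated without such genes. Of the 10, SMC3, RAD21 and WAPL were called higher with the trends removed, and SGO1 (log2 0.23), SMC1A (0.08), PDS5A (0.01), STAG2 (-0.05), STAG1 (-0.06), PDS5B (-0.07) and NIPBL (-0.14) were not. SMC3, a cohesin arm, averaged 4.55 ± 0.0497 FPKM in BON-1 alone, 7.99 ± 0.778 at 10:2, 12.2 ± 1.09 at 10:4 and 8.64 ± 0.425 at 10:6 (SD, n = 3). It was called at every ratio against BON-1 alone with and without the trends, and SMC3 and STAG2 were the list's only calls at 10:6 against 10:4, both lower (log2 -0.45 ± 0.07 and -0.49 ± 0.08, limma adjusted p = 0.0288 each). Both calls were lost without BON-1 alone replicate 2, 10:4 replicate 2, 10:4 replicate 3, 10:6 replicate 1 or 10:6 replicate 3, with adjusted p up to 0.126. SMC3 also lost its call without BON-1 alone replicate 1 or 10:6 replicate 2, and STAG2 without 10:2 replicate 1. RAD21, the cohesin subunit that separase cuts, averaged 31.4 ± 1.12 FPKM at 10:6, against 18.9 ± 0.273 in BON-1 alone (log2 0.70 ± 0.05, adjusted p = 5.06e-07), and 0.30 with the trends removed (adjusted p = 0.000199).

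The same list held 17 genes of mitotic entry and its transcription factors. Of these, 6 were higher and 6 lower at 10:6, beside the same 29.7% and 18.3% of all genes. The higher were ARPP19, MASTL, LIN54, BORA, WEE1 and LIN9, and the lower CCNF, CDC25B, FOXM1, CDC25A, PKMYT1 and MYBL2. ARPP19 averaged 18.9 ± 3.03 FPKM at 10:6, against 9.76 ± 0.314 in BON-1 alone (SD, n = 3 each). With the trends removed ARPP19 (log2 0.45, limma adjusted p = 0.00122) and MASTL (0.33, 0.0143) were called higher at 10:6. CCNF, CDC25B, FOXM1 and CDC25A were called lower that way, and the others named were not called. FOXM1, a driver of G2 and M transcription, averaged 71.5 ± 1.38 FPKM in BON-1 alone, 66.7 ± 0.647 at 10:2, 63.7 ± 1.66 at 10:4 and 62.3 ± 1.06 at 10:6. Its log2 change at 10:6 was -0.19 ± 0.03 (limma adjusted p = 0.00021), and -0.11 with the trends removed (adjusted p = 0.00695). MYBL2 (B-MYB) averaged 92.7 ± 2.78 FPKM at 10:6, against 101 ± 1.07 in BON-1 alone (log2 -0.13 ± 0.03, adjusted p = 0.00332), and 0.01 with the trends removed. CCNF (cyclin F) averaged 34.4 ± 0.740 FPKM at 10:6, against 43.6 ± 1.13 (log2 -0.33 ± 0.04, adjusted p = 3.03e-05), and was lower with the trends removed as well (-0.25, adjusted p = 0.000579).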

How the data were processed

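The authors deposited FPKM values for 54261 genes in 12 libraries. HISAT2, featureCounts and hg38 are named per the submitters' processing notes, without versions or a strand setting. Groups came from titles. The 40 members and all lists were chosen with earlier results of these data known.

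Whole reads were recovered from the FPKM steps (99.9738% of 267349 nonzero values whole within 1e-07 of a read), and depth limits weak genes most. The fit used limma 3.58.1 under R 4.3.3, on log2(FPKM + 1), with a mean for each group and a variance trend, all 12 libraries together, and was tested on simulated data. GC content came from the longest GENCODE 29 transcript and lengths from the recovery (93.11% of tested genes had both); trends were splines with 5 degrees of freedom. Tables were handled in Python 3.11.15 with numpy 2.4.6 and pandas 2.3.3, and plots drawn with matplotlib 3.10.9.

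Members given in every library were, by rule, TOP2A and BUB1, the 8 largest rises and up to 6 falls at 10:6 against BON-1 alone, the 6 smallest p at 10:6 against 10:4, and the 2 smallest changes; CDK1 was added after its values were seen. Other genes were taken from the lists. Alternatives were a pseudocount of 0.1, no filter, a mean FPKM of at least 5, median-of-ratios and quantile scaling, robust moderation, limma-voom on recovered reads, trends removed, the replicate block, only the groups compared, and each library left out.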

Additional observations from a re-analysis of the deposited data

How the results depend on the processing

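With length and GC trends removed, of the 40 members 10 were called at 10:2, 22 at 10:4 and 16 at 10:6 against BON-1 alone (27, 35 and 35 on the deposited values), 3 at 10:4 against 10:2, 4 at 10:6 against 10:2, all lower, and 23 by the F test. SMC4 at 10:6 against BON-1 alone turned to a log2 change of -0.004 and CDC20 at 10:4 to 0.0335, neither called, with or without the replicate block. Together with the replicate block the counts were 10, 20, 16, 3, 0 and 21 in the same order. Over all 12395 genes tested that way, the comparisons gave 1446, 2868, 3166, 106 and 457 calls with the trends removed. With the block as well they gave 1229, 2610, 2875, 51 and 294. The F test was not counted over all genes in these settings. The replicate numbers did not mark shared libraries: deviations from group means correlated between -0.043 and 0.046 over 18 same-numbered pairs and between -0.053 and 0.062 over 36 others. The replicate block alone left 1 call at 10:6 against 10:4 and 1 at 10:6 against 10:2, both lower, and moved the other counts by at most 1.5 times. With this block 15 and 542 of all 13312 genes were called in those 2 comparisons. With limma-voom 14 members were called at 10:4 against 10:2 (13 higher and 1 lower) and 10 at 10:6 against 10:4, all lower. Calls over all 13312 genes also rose with limma-voom, from 384 to 1045 and from 44 to 276 in these comparisons. Fitting only the groups compared gave 2, 0 and 1 at 10:4 against 10:2, 10:6 against 10:4 and 10:6 against 10:2, and without a filter the last 2 counts were 0 (17 lower and 1 higher at an unadjusted p under 0.05) and 1, lower. Over all genes the fits of the groups compared gave 48, 12 and 263 calls. Without a filter the last 2 comparisons gave 16 and 477 over all genes.

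Leaving out each library in turn gave 20 to 28 calls at 10:2, 31 to 35 at 10:4 and 31 to 35 at 10:6 against BON-1 alone, 31 to 36 by the F test, 2 to 10 at 10:4 against 10:2, 0 to 6 at 10:6 against 10:4 and 0 to 6 at 10:6 against 10:2. Calls over all 13312 genes then ranged from 2588 to 3807, 5070 to 6063 and 5405 to 6464 against BON-1 alone. Between the ratios they ranged from 45 to 461, 12 to 42 and 229 to 1105, in the same order. Other scalings, the pseudocount of 0.1, the mean FPKM of at least 5 and robust moderation kept all 7 counts within 1.5 times. Trend removal turned the sign of 4 called members at 10:2, 10 at 10:4 and 8 at 10:6 against BON-1 alone. CCNB1, CCNB2 and BUB3 were then called in the opposite direction at 10:4 and 10:6, and MAD2L1 at 10:6. None turned under limma-voom, both scalings, the replicate block, both filters and fitting only the groups compared. The cause of these differences was not tested. CENPE, with 57 to 144 reads a library, is the member that depth limits most.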
